A study of Mus musculus with 6 samples.

Results

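The genes described here encode the UDP-glucuronosyltransferase superfamily (UGT) and the cytosolic sulfotransferases (SULT), the enzymes that attach a sugar or a sulfate to drugs, steroids, bile acids and waste products so that these can be excreted. They were taken by symbol, as every listed gene that begins with Ugt1a, Ugt2a, Ugt2b, Ugt3a or Ugt8a or with Sult and a digit, pseudogenes left out. The rule found 43 genes of the 34714 in the deposited table, 22 UGT genes and 21 SULT genes, and used no measured value. Of these, 15 were expressed, defined as a mean of at least 1 FPKM over all 6 libraries (FPKM are fragment counts divided by transcript length and by the mapped total, as deposited by the authors). The expressed genes were 11 UGT and 4 SULT genes.

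RNA was sequenced from 3 kidney samples labelled Hspa8 knockout and 3 labelled wild-type (WT), all from mice 8 weeks old on normal chow. The titles of the wild-type samples carry C57, and those of the knockout samples carry no strain. The series obtained Hspa8flox/flox mice, Cdh16-Cre mice and C57BL/6J mice, and Cdh16 is a promoter of kidney tubule epithelium. The labels do not say which alleles the knockout animals carried, and cells in which a Cre is not active would keep the gene. The series asks how HSPA8, the constitutive HSP70 chaperone, bears on SREBP activation in kidney tubules. Whether each sample is an animal of its own is not stated, so the p-values reflect only the spread among these 6 samples, part of which may be technical. Effects of strain, floxed allele, Cre and loss of Hspa8 cannot be told apart in this design.

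UGT enzymes sit in the membrane of the endoplasmic reticulum and take glucuronic acid from UDP-glucuronic acid, which the cytosol makes from UDP-glucose. SULT enzymes are soluble and take sulfate from the donor PAPS. The kidney carries both systems mainly in the proximal tubule, next to the transporters that pull organic anions from blood and pass the conjugates into urine. Mouse Ugt1a genes share a locus in which each gene has its own start and the later exons are common to all of them. The Ugt2b genes are separate neighbouring copies.

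Hspa8, the gene named as deleted (chromosome 9, 40801276 to 40805202 in GRCm38.p6), had 650, 699 and 781 FPKM in knockout kidneys, against 1058, 1092 and 1318 FPKM in WT kidneys. The groups did not overlap, and the knockout mean was 61.4% of the WT mean. Its log2 fold change was -0.70, with an unadjusted limma p of 0.000418, rank 4 of the 12174 tested genes. The limma adjusted p was 0.866, so the gene named as deleted was itself not called. The lack of a call in this test is therefore no evidence that a gene is unchanged. Over all 12174 tested genes limma called 0 genes at an adjusted p of 0.05, which is 0% of them, with 629 genes (5.17%) at an unadjusted p under 0.05. Of the tested genes 64.9% had a log2 fold change below 0, with a median of -0.040. FPKM keep no read totals, so depth is unknown and no counting interval is given. Knockout replicate 2 and WT replicate 3 stood apart from the other libraries on the first principal component of all tested genes, at 0.331 and 0.717, against -0.416 to 0.00659 in the other 4. That component held 47.5% of the variance.

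The promoters of the 3 closest UGT2B relatives are shown because Ugt2b37 had the lowest fold change estimate of all members and its proportion to Ugt2b5 did not overlap between the genotypes. Each sequence holds the 250 bases before the start of the gene, from RefSeq's GRCm38.p6 table, on the minus strand of chromosome 5. The coordinates are chr5:87424204-87424453 for Ugt2b38, chr5:87254789-87255038 for Ugt2b37 and chr5:87140341-87140590 for Ugt2b5. Capitals mark the longest run of bases that is identical in all 3.
Ugt2b38: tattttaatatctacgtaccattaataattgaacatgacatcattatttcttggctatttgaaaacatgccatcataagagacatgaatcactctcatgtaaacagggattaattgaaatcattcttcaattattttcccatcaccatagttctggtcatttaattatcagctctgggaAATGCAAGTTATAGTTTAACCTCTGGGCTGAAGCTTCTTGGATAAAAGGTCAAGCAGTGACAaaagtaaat
Ugt2b37: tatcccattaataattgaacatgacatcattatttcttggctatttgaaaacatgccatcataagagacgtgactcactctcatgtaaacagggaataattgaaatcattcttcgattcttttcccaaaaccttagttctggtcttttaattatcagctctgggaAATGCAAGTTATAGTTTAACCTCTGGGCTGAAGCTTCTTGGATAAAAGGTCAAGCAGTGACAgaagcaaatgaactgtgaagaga
Ugt2b5: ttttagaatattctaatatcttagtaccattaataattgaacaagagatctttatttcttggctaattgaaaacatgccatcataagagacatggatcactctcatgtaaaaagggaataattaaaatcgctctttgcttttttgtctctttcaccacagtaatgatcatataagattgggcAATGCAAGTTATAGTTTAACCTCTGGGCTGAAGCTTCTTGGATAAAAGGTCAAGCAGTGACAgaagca
The shared run is 62 bases long and ends 10 bases before the start in Ugt2b38, 24 before it in Ugt2b37 and 7 before it in Ugt2b5. It occurred on either strand in 3 of the 32851 promoter windows of the table, those of these 3 genes. Over the 250 bases the identity was 84.8% between Ugt2b38 and Ugt2b37, 81.5% between Ugt2b38 and Ugt2b5 and 72.6% between Ugt2b37 and Ugt2b5. The coding sequences in GENCODE M21 were closer still, at 97.0% identity for Ugt2b38 and Ugt2b5, 94.7% for Ugt2b37 and Ugt2b5 and 94.1% for Ugt2b38 and Ugt2b37. Of all 50-base words in its transcript Ugt2b38 shared 37.4% with other members, Ugt2b5 41.7% and Ugt2b37 18.3%, so fragments from these copies can be credited to each other. Ugt2b34, a more distant relative at 72.0% coding identity to Ugt2b38, shared 1.44%.

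No UGT or SULT gene was called different between the genotypes. Of the 15 expressed members 0 passed at an adjusted p of 0.05 (limma, Benjamini-Hochberg over 12174 genes), against 0% of all tested genes, and 0 had an unadjusted p under 0.05. Their adjusted p ran between 0.973 and 0.998, and 10 had a log2 fold change below 0 and 5 above it (66.7% below 0, against 64.9% of all tested genes). The median was -0.12, against -0.040 over all tested genes. A fold change above 0 was found for 35.1% of all tested genes. The groups did not overlap for 1 member, which was lower, 6.67% of the 15. Of all tested genes 10.6% did not overlap, 2.01% higher and 8.57% lower in the knockout. An exact permutation test of 3 against 3 libraries cannot go below p = 0.1. Bulk kidney RNA cannot tell fewer cells of a type from less RNA per cell.

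The most abundant transcripts were those of Ugt3a2 and Ugt2b38, followed by Sult1d1, Ugt1a7c and Ugt3a1, and these 5 genes had means above 100 FPKM over the 6 libraries. The plot of levels by library shows all 15 expressed members.

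**Figure D1:**
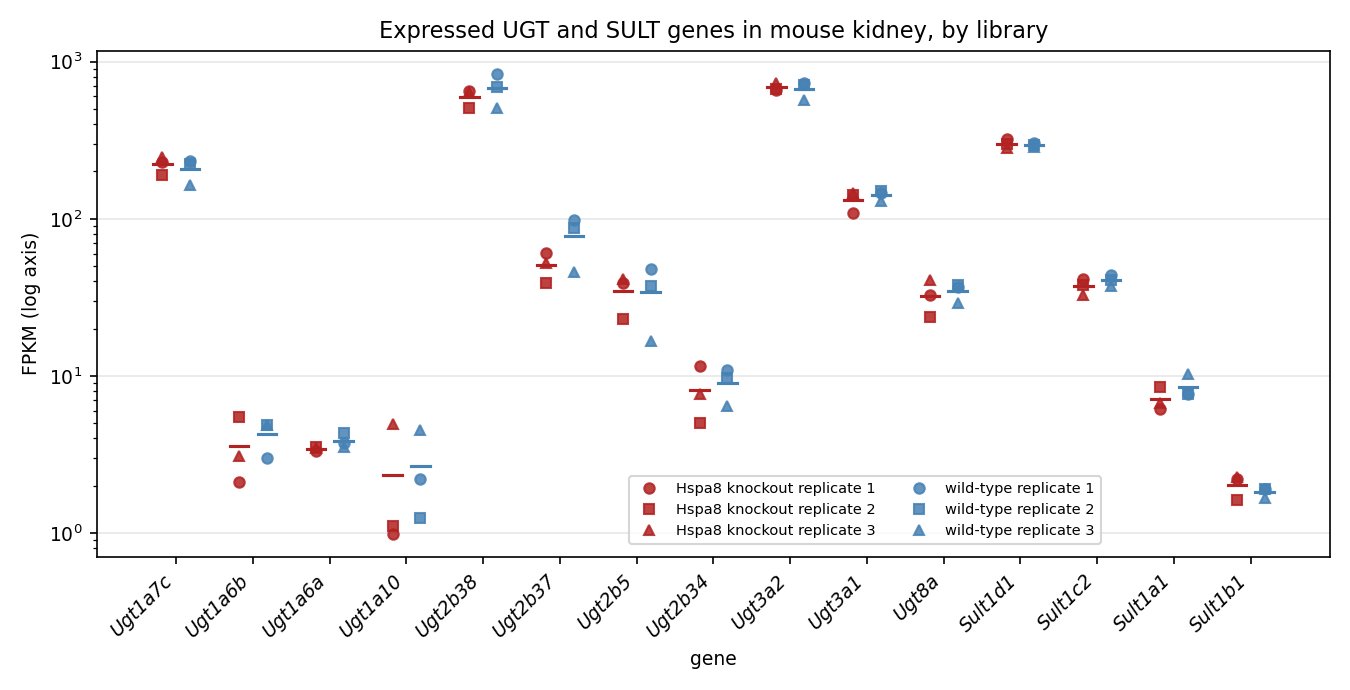
FPKM (log axis) of the 15 expressed UGT and SULT genes, grouped by family, with 1 point for each library and a bar at the mean of 3 libraries, Hspa8 knockout on the left and wild-type on the right of each pair. Means run from 1.82 FPKM for Sult1b1 in wild-type to 686 FPKM for Ugt3a2 in the knockout, and the groups overlap for every gene but Ugt1a6a.

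UGT1A enzymes glucuronidate phenols, bilirubin and many drugs, and 4 of their 9 genes were expressed. Ugt1a7c (chromosome 1, 88095001 to 88220002) had 230, 189 and 246 FPKM in knockout kidneys, against 232, 223 and 165 FPKM in WT kidneys. The lowest values were WT replicate 3 and knockout replicate 2, and the groups overlapped widely. Means were 222 ± 29.7 FPKM in knockout and 206 ± 36.4 FPKM in WT kidneys (SD, n = 3 each), a log2 fold change of 0.11 with a 95% interval from -0.25 to 0.47 (limma adjusted p = 0.998). Ugt1a7c made up 92.6% to 97.0% of the summed FPKM of the family in each library.

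Ugt1a6a and Ugt1a6b encode near-identical phenol-conjugating enzymes, with 98.4% identity of the coding sequence, and their split is uncertain. Ugt1a6a had 3.34, 3.52 and 3.50 FPKM in knockout kidneys, against 3.73, 4.32 and 3.55 FPKM in WT kidneys. It was the only expressed member whose groups did not overlap, with all 3 knockout values below the lowest WT value by a margin smaller than the spread of the WT values. Its log2 fold change was -0.12 (limma adjusted p = 0.998), and the exact permutation test gave p = 0.1. Ugt1a6b had 2.12, 5.50 and 3.07 FPKM in knockout kidneys, against 3.02, 4.88 and 4.84 FPKM in WT kidneys, with the highest and the lowest value both in the knockout. Ugt1a10, whose human counterpart is an enzyme of the gut, had 0.993, 1.10 and 4.95 FPKM in knockout kidneys, against 2.21, 1.25 and 4.54 FPKM in WT kidneys. It stood high in knockout replicate 3 and WT replicate 3, and its highest value was 4.98 times its lowest, the widest range of the 15. Its 95% interval, from -1.28 to 0.82 on the log2 scale, was accordingly the widest.

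The 9 UGT1A genes share 4 coding exons on chromosome 1 between 88215044 and 88218421, which hold 735 coding bases. In GENCODE M21 transcripts 40.3% of the 50-base words of Ugt1a7c, 58.0% of those of Ugt1a10, 77.7% of those of Ugt1a6a and 79.8% of those of Ugt1a6b stood in another member. No source used here says how fragments of the shared exons were assigned, so levels of single UGT1A genes are less certain than their sum. The summed UGT1A level was 237, 199 and 258 FPKM in knockout kidneys, against 241, 234 and 178 FPKM in WT kidneys, and these ranges overlapped.

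UGT2B enzymes glucuronidate steroids and bile acids, and 4 of the 10 UGT2 genes were expressed. Ugt2b38 (chromosome 5, 87409939 to 87424203) had 647, 504 and 637 FPKM in knockout kidneys, against 837, 691 and 505 FPKM in WT kidneys. The highest pair of values came from WT replicates 1 and 2, and the lowest pair from knockout replicate 2 and WT replicate 3. Means were 596 ± 79.7 FPKM in knockout and 678 ± 166 FPKM in WT kidneys (SD, n = 3 each). The log2 fold change was -0.16 with a 95% interval from -0.60 to 0.27 (limma adjusted p = 0.998). Ugt2b38 made up 83.7% to 88.2% of the summed FPKM of the UGT2 genes and 31.4% to 38.9% of that of all UGT genes.

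Ugt2b37 (chromosome 5, 87240492 to 87254788), a close copy of Ugt2b38, had the lowest estimate of all members. It stood at 60.3, 39.0 and 52.2 FPKM in knockout kidneys, against 98.8, 86.9 and 46.1 FPKM in WT kidneys. WT replicates 1 and 2 lay above every knockout library, while WT replicate 3 lay within the knockout range. The knockout mean, 50.5 ± 10.8 FPKM, was 65.4% of the WT mean of 77.2 ± 27.7 FPKM (SD, n = 3 each). On the log2 scale this was -0.55 (standard error 0.278), with a 95% interval from -1.19 to 0.086. The unadjusted limma p was 0.0813, rank 999 of the 12174 tested genes, and the adjusted p was 0.973. The exact permutation test gave p = 0.3. Without knockout replicate 2 and WT replicate 3 together the log2 fold change was -0.71 and the limma adjusted p 0.361. Without WT replicate 3 alone the estimate was -0.88, and without WT replicate 1 alone -0.34.

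Ugt2b5 (chromosome 5, 87124946 to 87140340) had 39.1, 22.9 and 41.3 FPKM in knockout kidneys, against 48.2, 37.2 and 16.6 FPKM in WT kidneys. WT replicate 3 and knockout replicate 2 were again lowest. Its log2 fold change was 0.10 (limma adjusted p = 0.998) and turned to -0.33 without WT replicate 3. Ugt2b34, the most distant of the expressed UGT2B genes, had 11.6, 4.99 and 7.66 FPKM in knockout kidneys, against 10.9, 9.69 and 6.42 FPKM in WT kidneys, with a log2 fold change of -0.18 (limma adjusted p = 0.998).

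Within a library the close UGT2B copies did not keep a constant proportion. The ratio of Ugt2b37 to Ugt2b5 was 1.54, 1.70 and 1.26 in knockout kidneys, against 2.05, 2.34 and 2.78 in WT kidneys. The 2 sets of ratios did not overlap, and the means were 1.50 ± 0.221 in knockout and 2.39 ± 0.367 in WT kidneys (SD, n = 3 each). The exact two-sided permutation test of the log2 ratio gave p = 0.1, the smallest it can give, and 0.4 when adjusted over the 4 ratios compared. The log2 difference, -0.67, ran from -0.77 to -0.55 when each library was left out in turn. A ratio within a library is not moved by how that library was scaled. The ratio of Ugt2b38 to Ugt2b37 was 10.7, 12.9 and 12.2 in knockout kidneys, against 8.47, 7.95 and 11.0 in WT kidneys (exact permutation p = 0.2, 0.4 adjusted). The ratio of Ugt2b38 to Ugt2b5 lay between 15.4 and 22.0 in knockout kidneys and between 17.4 and 30.5 in WT kidneys (exact permutation p = 0.5). That of Ugt3a2 to Ugt3a1 lay between 4.70 and 6.08 in knockout kidneys and between 4.44 and 5.00 in WT kidneys (exact permutation p = 0.5). These ratios were examined with the values of the members known, and they rest on genes that can share fragments.

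**Figure D2:**
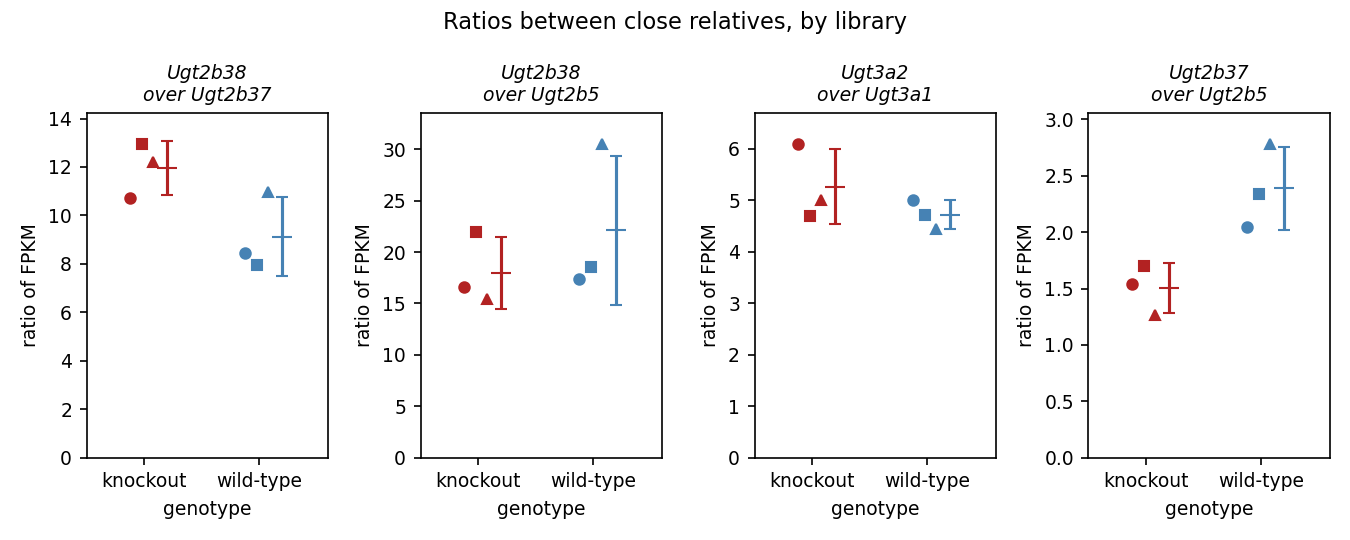
Ratio of FPKM between 4 pairs of related UGT genes in each library, with points for Hspa8 knockout on the left and wild-type on the right, marked by replicate, and bars for the mean ± SD of 3 libraries. Ugt2b37 over Ugt2b5 lies between 1.26 and 1.70 in the knockout and between 2.05 and 2.78 in wild-type, and the other 3 ratios overlap between the genotypes.

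UGT3A enzymes take other sugars than glucuronic acid, N-acetylglucosamine for human UGT3A1 and glucose or xylose for human UGT3A2. Ugt3a2 (chromosome 15, 9335551 to 9370955) had 657, 669 and 733 FPKM in knockout kidneys, against 733, 706 and 572 FPKM in WT kidneys. Its values were among the steadiest of the UGT genes, with the highest library 1.28 times the lowest, and the groups overlapped. Means were 686 ± 40.9 FPKM in knockout and 670 ± 86.2 FPKM in WT kidneys (SD, n = 3 each), and the log2 fold change was 0.040 with a 95% interval from -0.23 to 0.31 (limma adjusted p = 0.998). That interval leaves room for a fold between 0.85 and 1.24. Ugt3a1 (chromosome 15, 9279822 to 9315038), its neighbour with 93.2% coding identity, had 108, 142 and 147 FPKM in knockout kidneys, against 147, 150 and 129 FPKM in WT kidneys. The lowest library was knockout replicate 1, and its log2 fold change was -0.11 (limma adjusted p = 0.998). It shared 8.14% of its 50-base words with Ugt3a2, which shared 8.55% of its own. Fragments from these shared parts can be credited to either gene, and the split between them is uncertain to that extent.

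Ugt8a (chromosome 3, 125865272 to 125938682) encodes the ceramide galactosyltransferase, which makes the precursor of sulfatides in myelin and kidney. It had 32.9, 23.6 and 40.9 FPKM in knockout kidneys, against 36.8, 37.6 and 29.0 FPKM in WT kidneys, with both the highest and the lowest value in the knockout. The log2 fold change was -0.11 (limma adjusted p = 0.998).

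Sulfotransferase transcript was mainly that of Sult1d1 (chromosome 5, 87554650 to 87569006), which in mice sulfates dopamine and other catecholamines. Sult1d1 had 324, 297 and 280 FPKM in knockout kidneys, against 305, 296 and 285 FPKM in WT kidneys. All 6 values lay close together, the highest 1.16 times the lowest, which was the narrowest range of the 15 members. Means were 300.4 ± 22.1 FPKM in knockout and 295 ± 9.83 FPKM in WT kidneys (SD, n = 3 each). The log2 fold change was 0.023 with a 95% interval from -0.19 to 0.23, a fold between 0.88 and 1.18 (limma adjusted p = 0.998). Sult1d1 made up 84.8% to 86.7% of the summed SULT level in every library.

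Sult1c2 (chromosome 17, 53829637 to 53845958), a phenol sulfotransferase, had 41.2, 37.7 and 32.9 FPKM in knockout kidneys, against 43.7, 40.7 and 37.2 FPKM in WT kidneys, and its log2 fold change was -0.12 (limma adjusted p = 0.998). Sult1a1 (chromosome 7, 126672865 to 126690443), the main enzyme for simple phenols, had 6.14, 8.46 and 6.73 FPKM in knockout kidneys, against 7.62, 7.65 and 10.3 FPKM in WT kidneys. Its log2 fold change was -0.23 with a 95% interval from -0.56 to 0.10 (limma adjusted p = 0.995), and its highest values were those of WT replicate 3 and knockout replicate 2. Sult1b1 (chromosome 5, 87513327 to 87538195), which sulfates thyroid hormone, was the lowest expressed member at 2.20, 1.62 and 2.27 FPKM in knockout kidneys, against 1.90, 1.90 and 1.66 FPKM in WT kidneys, with a log2 fold change of 0.095 (limma adjusted p = 0.998). The 4 SULT1 genes shared 0% of their 50-base words with other members. The summed SULT level was 375, 347 and 323 FPKM in knockout kidneys, against 359, 347 and 336 FPKM in WT kidneys.

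**Figure D3:**
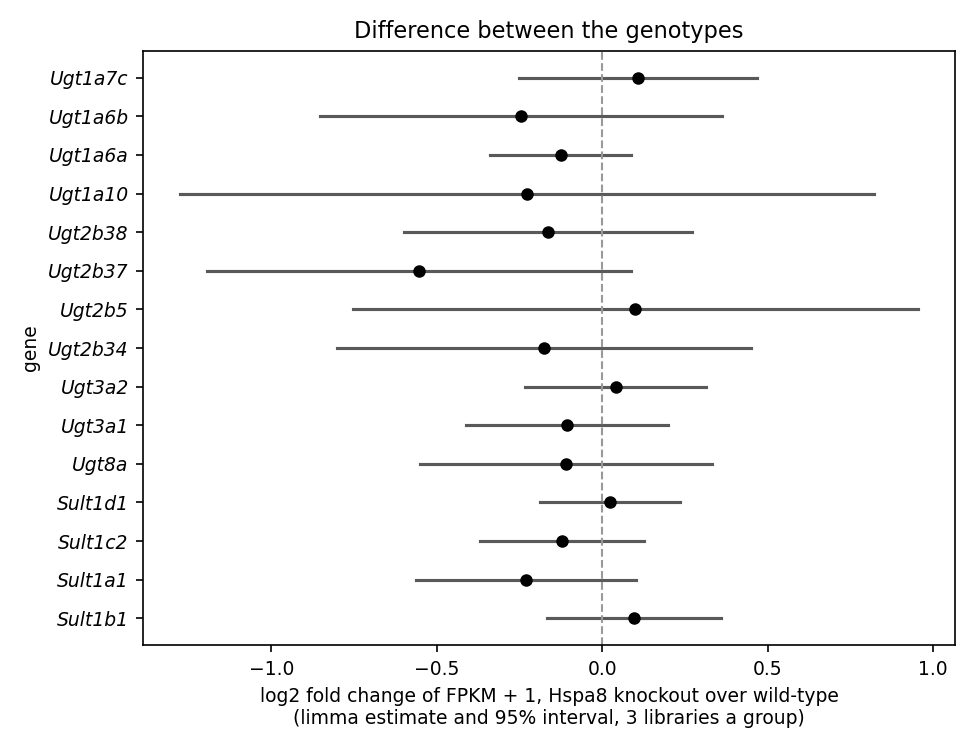
Log2 fold change of FPKM + 1, Hspa8 knockout over wild-type, for the 15 expressed members (points) with limma's 95% interval (lines), families from top to bottom in the order UGT1A, UGT2, UGT3A, UGT8A and SULT1. Every interval holds 0, from the narrow one of Sult1d1 (-0.19 to 0.23) to the wide one of Ugt1a10 (-1.28 to 0.82).

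The other 28 members lay below the threshold and were not tested. Of these, 15 were listed at 0 in all 6 libraries, and 13 had means between 0.00662 and 0.768 FPKM. All 9 SULT2 genes, which sulfate steroids, bile acids and cholesterol, were below it, and 8 of them were listed at 0 throughout. The 6 genes of SULT3 to SULT6 were also below it. The values nearest to the threshold were means of 0.768 FPKM for Sult5a1 below it and 1.92 FPKM for Sult1b1 above it. A few low members are named after their values were seen. Ugt1a1, which clears bilirubin in liver, had 0.519, 0.165 and 0.315 FPKM in knockout kidneys, against 0.179, 0.236 and 0.118 FPKM in WT kidneys. Ugt1a2 had 0.144, 0.322 and 0.149 FPKM in knockout kidneys, against 0.0972, 0.0883 and 0.0731 FPKM in WT kidneys, and the groups did not overlap. Both carry the shared exons, and at this level values rest on few fragments. Sult1e1, the oestrogen sulfotransferase, had 0.0696, 0 and 0 FPKM in knockout kidneys, against 0.0608, 0.0881 and 0.178 FPKM in WT kidneys.

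The members' levels varied between libraries of the same genotype. Knockout replicate 2 and WT replicate 3 held the 2 lowest values of Ugt1a7c, all 4 expressed UGT2B genes, Ugt8a and Sult1b1, 7 of the 15 members, and the 2 highest values of Sult1a1. Among all tested genes the same 2 libraries were lowest for 15.2% and highest for 22.7%. The principal component that sets them apart was drawn from all tested genes, members included, so this count is a description only. For Ugt2b5 the deviation from the mean of the 6 libraries was -0.47 in knockout replicate 2 and -0.92 in WT replicate 3 on the log2 scale, and for Sult1d1 it was -0.0011 and -0.061. Sult1d1 lies in the same cluster on chromosome 5 as the UGT2 genes, where 10 UGT and 3 SULT genes stand within 86889770 to 87591611, and 6 of these 13 were expressed.

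**Figure D4:**
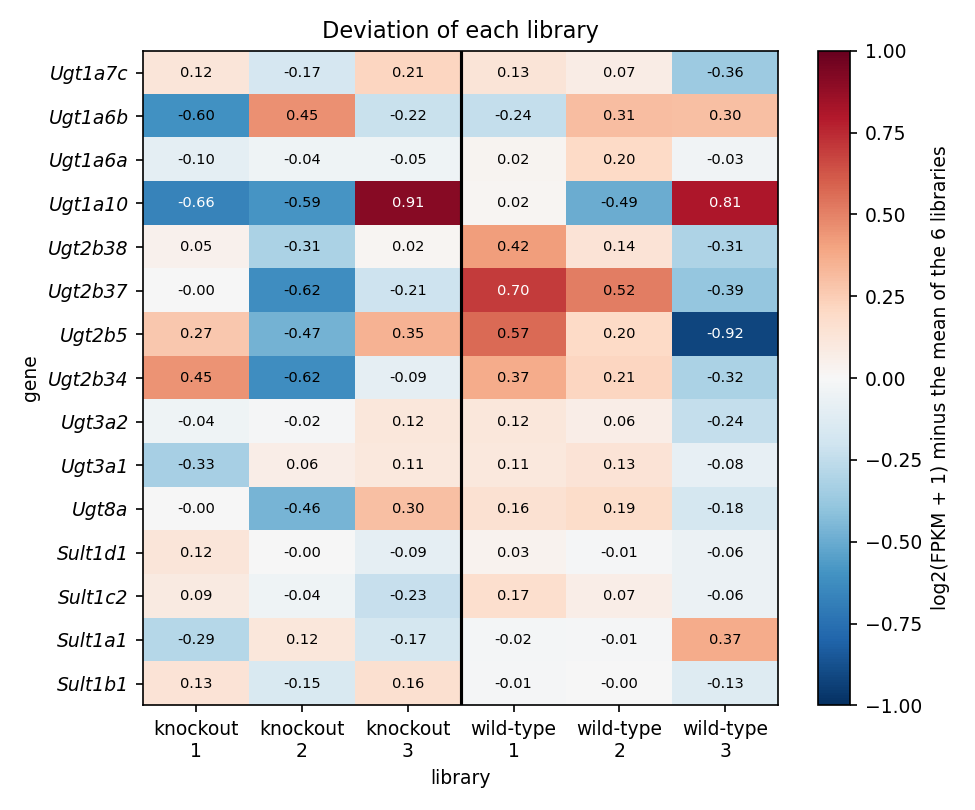
Deviation of log2(FPKM + 1) from the mean of the 6 libraries for each expressed member (rows) in each library (columns, Hspa8 knockout left of the line and wild-type right of it), with red above and blue below the mean. Knockout replicate 2 and wild-type replicate 3 are blue for all 4 UGT2B genes, down to -0.92 for Ugt2b5, while Sult1d1 stays between -0.087 and 0.12.

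Over the 6 libraries the log2 levels of Ugt2b38 and Ugt2b37 had a Pearson correlation of 0.93, those of Ugt2b38 and Ugt2b5 of 0.90 and those of Ugt2b38 and Ugt2b34 of 0.84. That between Ugt2b38 and Sult1d1 was 0.35. The 6 points share the libraries and their scaling, and the first 2 pairs can share fragments, so these are descriptions.

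Values of other cell types were set beside the members, and their part in these levels was not tested. The 16 proximal tubule markers were all expressed, with a summed level of 7589 to 7948 FPKM in knockout and 7665 to 7916 FPKM in WT kidneys. That sum was mostly Slc34a1, Slc27a2 and Miox, whose opposite moves can offset each other in it. In knockout replicate 2 Slc34a1 had its lowest value of the 6 libraries, 1474 FPKM, and Slc27a2 its highest, 2197 FPKM. Miox was highest in WT replicate 3, at 1777 FPKM. Single markers thus differed between libraries within a near-constant sum. Knockout replicate 2 and WT replicate 3 held the 2 lowest values for 5 of the 16 (Lrp2, Cubn, Slc34a1, Slc4a4 and Acsm2), as for the UGT2B genes, and the 2 highest for 4 (Aqp1, Slc22a7, Cyp7b1 and Slc6a18). Lrp2, the endocytic receptor megalin, had 163, 111 and 181 FPKM in knockout kidneys, against 176, 142 and 102 FPKM in WT kidneys. The 12 markers of other tubule segments summed to 1281, 1942 and 1810 FPKM in knockout kidneys, against 1549, 1548 and 1797 FPKM in WT kidneys. The same 2 libraries were highest for 4 of these (Umod, Slc12a1, Pvalb and Aqp2) and lowest for 3 (Slc12a3, Atp6v1g3 and Slc26a4). Umod, the uromodulin gene of the thick ascending limb, had 762, 1272 and 1061 FPKM in knockout kidneys, against 870.5, 952 and 1187 FPKM in WT kidneys. The tubule genes named here were chosen after their values were seen. The 8 urothelial markers summed to 2.06, 9.94 and 1.26 FPKM in knockout kidneys, against 2.09, 3.21 and 7.12 FPKM in WT kidneys, highest in the 2 libraries that stood apart. The 10 leukocyte markers summed to 40.0, 63.7 and 38.2 FPKM in knockout kidneys, against 49.0, 44.0 and 62.1 FPKM in WT kidneys, also highest in these 2. That sum was mostly Csf1r, C1qa, C1qb and C1qc. These and Cd68 were highest in the 2 libraries, 5 of the 6 tested, and Ptprc was not. Ptprc, a marker of leukocytes in general, had 1.88, 1.83 and 1.65 FPKM in knockout kidneys, against 2.54, 2.19 and 2.43 FPKM in WT kidneys, without overlap (limma adjusted p = 0.914). The 10 endothelial markers summed to 111 to 145 FPKM in knockout and 148 to 201 FPKM in WT kidneys, with 0 called. Of these, 10 were below 0 in log2 fold change (64.9% of all tested genes) and 9 had an unadjusted limma p under 0.05 (5.17%). The groups did not overlap for 6, against 10.6% of all tested genes. The 8 adipocyte markers summed to 64.6 to 71.0 FPKM in knockout and 76.1 to 131 FPKM in WT kidneys, mostly Car3 and Fabp4. Adipoq overlapped between the groups, at 0.546, 0.166 and 0.719 FPKM in knockout kidneys, against 0.192, 0.388 and 2.30 FPKM in WT kidneys. Of 9 hepatocyte markers Cyp2c29 was listed at 0, Alb averaged 2.10 FPKM in knockout and 1.90 FPKM in WT kidneys, and the sum, mostly Ttr, was 131 to 170 FPKM in knockout and 125 to 199.5 FPKM in WT kidneys. The 8 adrenal cortex markers summed to under 2 FPKM in every library, with Cyp11b1, Cyp11b2 and Cyp21a1 listed at 0. The 8 red cell genes summed to 422, 79.0 and 555 FPKM in knockout kidneys, against 53.1, 59.4 and 60.7 FPKM in WT kidneys. These sums did not overlap, and knockout replicate 2 lay near the WT values. Of the 6 tested 0 were called, and the median log2 fold change was 2.24. All 6 were above 0, against 35.1% of all tested genes. An unadjusted limma p under 0.05 was found for 5 (5.17% of all tested genes). The groups did not overlap for 5 (10.6%). Of 11 tested genes known to differ between male and female mouse kidney, 4 were lowest in knockout replicate 2 and WT replicate 3 (Slco1a1, Cyp2e1, Cyp4b1 and Cyp2j13) and 2 were highest there (Kap and Cyp7b1). The sample labels do not give the sex of the animals, and its part in these levels was not tested. The other tested genes, Slc22a30, Acsm3, Prlr, Slc7a12 and Cyp4a14, were neither. The genes are not sorted here by the sex in which they are higher. Slco1a1 is given as an example of those lowest in these 2 libraries and Kap of those highest. Both were picked after their values were seen. Slco1a1 had 113, 97.7 and 143 FPKM in knockout kidneys, against 162, 109 and 50.8 FPKM in WT kidneys. Kap had 33214, 42143 and 30598 FPKM in knockout kidneys, against 36662, 37355 and 42280 FPKM in WT kidneys.

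The supply of UDP-glucuronic acid showed no called change. Of 7 genes 0 passed in either direction (limma, adjusted over all genes, 0% of all tested genes), 6 were above 0 and 1 below, and the median log2 fold change was 0.074. Slc35d2, a nucleotide sugar transporter of the Golgi, had 9.36, 10.9 and 9.22 FPKM in knockout kidneys, against 8.59, 9.14 and 7.22 FPKM in WT kidneys, all knockout values above all WT values by a narrow margin (limma adjusted p = 0.973). Uxs1, which turns UDP-glucuronic acid into UDP-xylose, and Slc35d1, which carries UDP-glucuronic acid into the endoplasmic reticulum, had log2 fold changes of 0.11 and 0.054. Ugdh, the UDP-glucose dehydrogenase that makes UDP-glucuronic acid, was named after its values were seen and stood at 52.4 ± 1.99 FPKM in knockout and 50.5 ± 4.39 FPKM in WT kidneys (SD, n = 3 each).

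Of 12 genes for the sulfate donor PAPS and for sulfate transport 0 passed in either direction, 7 were above 0 and 5 below, with a median of 0.053. The 4 with the smallest p were Slc26a6, an anion exchanger, Slc13a4 and Slc26a2, sulfate carriers, and Papss1, a PAPS synthase, with log2 fold changes of 0.15, 0.17, 0.29 and 0.14 (limma adjusted p = 0.973, 0.988, 0.998 and 0.998). Slc13a4 had 2.86, 2.29 and 2.45 FPKM in knockout kidneys, against 2.17, 2.21 and 2.05 FPKM in WT kidneys, and it and Slc26a6 were the 2 genes of the 12 whose groups did not overlap, both higher in the knockout, against 10.6% of all tested genes without overlap and 2.01% higher. Named after their values were seen, Papss2, the more abundant PAPS synthase, had 88.0 ± 2.86 FPKM in knockout and 89.2 ± 3.99 FPKM in WT kidneys, and Slc13a1, the sodium-sulfate cotransporter of the proximal brush border, 136 ± 12.7 FPKM in knockout and 137 ± 5.46 FPKM in WT kidneys (SD, n = 3 each).

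Among enzymes that remove glucuronic acid or sulfate 0 of 8 tested genes passed, 4 were above 0 and 4 below, and the median was 0.015. Arsg, a lysosomal sulfatase, Sumf2, a relative of the sulfatase-activating enzyme, Gusb, the lysosomal beta-glucuronidase, and Sumf1, the activating enzyme itself, had log2 fold changes of -0.15, -0.12, 0.19 and 0.10 (limma adjusted p = 0.998 each). Among transporters of conjugates and other organic anions 0 of 14 passed, 9 were above 0 and 5 below, and the median was 0.066. Slc22a6, the basolateral organic anion carrier OAT1, had 305, 263 and 320 FPKM in knockout kidneys, against 276, 243 and 213 FPKM in WT kidneys, and the log2 fold change was 0.28 (limma adjusted p = 0.971). Abcc2, the apical pump MRP2, had 81.1, 75.5 and 77.6 FPKM in knockout kidneys, against 76.1, 72.4 and 47.6 FPKM in WT kidneys, with WT replicate 3 well below the rest. The anion carriers Slc17a3 and Slco1a6 had log2 fold changes of 0.16 and 0.17 and did not pass.

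Other conjugating enzymes held the smallest p-values of the lists that belong to conjugation. Of 13 tested genes 0 passed, 6 were above 0 and 7 below, the median was -0.014, and 2 had an unadjusted limma p under 0.05, against 5.17% of all tested genes. Acsm1, a medium-chain acyl-CoA synthetase that primes acids for glycine conjugation, had 84.0, 91.2 and 88.1 FPKM in knockout kidneys, against 99.5, 107 and 107 FPKM in WT kidneys. All knockout values lay below all WT values, with a log2 fold change of -0.25 (limma adjusted p = 0.914). Hnmt, the histamine N-methyltransferase, had 10.2, 11.1 and 9.78 FPKM in knockout kidneys, against 12.2, 13.8 and 11.4 FPKM in WT kidneys, also without overlap (log2 fold change -0.24, limma adjusted p = 0.947). Inmt, an amine N-methyltransferase, and Glyat, the glycine N-acyltransferase, had log2 fold changes of -0.15 and -0.074.

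Of 15 tested receptors and transcription factors known to act on conjugation genes 0 passed, 6 were above 0 and 9 below, with a median of -0.043. Nfe2l2, which encodes the stress-response factor NRF2, had 33.4, 34.6 and 35.1 FPKM in knockout kidneys, against 41.7, 38.4 and 37.1 FPKM in WT kidneys. The groups did not overlap, the log2 fold change was -0.18, and the limma adjusted p was 0.973. The bile acid receptor Nr1h4 and the xenobiotic receptor Nr1i2 had log2 fold changes of -0.085 and 0.13 (limma adjusted p = 0.998 each). Of 10 tested target genes of these factors outside the members 0 passed, 4 were above 0 and 6 below, with a median of -0.017. The NRF2 targets Hmox1 and Nqo1 differed in sign. Gclm, Gclc, Txnrd1 and Srxn1 of the same list had log2 fold changes of -0.026, -0.0075, 0.074 and 0.017. Hmox1, the haem oxygenase, had 17.7, 21.0 and 17.7 FPKM in knockout kidneys, against 23.6, 20.1 and 25.1 FPKM in WT kidneys. Nqo1, the quinone reductase, had 39.1, 45.7 and 37.2 FPKM in knockout kidneys, against 30.6, 35.8 and 38.1 FPKM in WT kidneys. Their log2 fold changes were -0.27 and 0.22 (limma adjusted p = 0.960 and 0.973). Cyp1b1 and Tiparp, targets of the aryl hydrocarbon receptor, had log2 fold changes of -0.24 and -0.13.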

How the data were processed

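RNA of 6 mouse kidney samples was analysed, 3 Hspa8 knockout and 3 wild-type, grouped and numbered by title. The authors' deposited table holds FPKM for each gene in each library. Per the submitters' processing notes the builds are GRCm38 and mm10. Aligner, quantifier and annotation: not given in the sources used here. Knockout columns, which carry the letters A8, were assigned to the HSPA8KO titles of the same number. Among genes under 0.1 FPKM in 2 libraries no single ratio held over 0.625% of them, so whole reads could not be recovered.

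The 12174 genes with a mean of at least 1 FPKM entered a two-sided test in limma 3.58.1 (R 4.3.3) on log2(FPKM + 1). Genotype was the only term, the prior variance followed the mean level, and p-values were adjusted by Benjamini-Hochberg. This scale understates the change of low genes. The test was also run on simulated data with independent noise for each gene. That noise lacks a component common to many genes, such as the first principal component of these libraries, so the run does not cover it. Members and gene lists were chosen with earlier results of these data known. All expressed members are named, and of each list of related genes the 4 with the smallest p, except that some are not reported here; other names were chosen after their values were seen. In place of protein identity, coding sequences and 50-base words of GENCODE M21 transcripts were compared with Biopython 1.88, leaving out a Ugt1a7c transcript that starts in the Ugt1a6a exon. Promoters of 37 members were found in RefSeq's GRCm38.p6 table. Impad1 and Sts are not analysed here. Alternatives covered the pseudocount, the filter, library scaling, the variance model, a replicate block and libraries left out.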

Additional observations from a re-analysis of the deposited data

How the results depend on the processing

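Under all 17 alternatives 0 members were called, and the smallest adjusted p of a member was 0.361. All tested genes gave 5 calls, each of them a globin gene, without knockout replicate 2 and again without knockout replicate 2 and wild-type replicate 3 together, and 0 under the other alternatives. The median log2 fold change of the expressed members, -0.12, ran from -0.17 to 0.011 when each library was left out in turn, and the value of 0.011 came without knockout replicate 2. Of 251 values of single members under an alternative 18 changed sign, for 9 of the 15 members, all of them where libraries were left out. Leaving out each library in turn, these 9 ran from -0.033 to 0.072 for Sult1d1, from -0.74 to 0.12 for Ugt1a10, from -0.045 to 0.22 for Ugt1a7c, from -0.45 to 0.092 for Ugt2b34, from -0.36 to 0.0041 for Ugt2b38, from -0.33 to 0.41 for Ugt2b5, from -0.19 to 0.031 for Ugt3a1, from -0.070 to 0.11 for Ugt3a2 and from -0.29 to 0.095 for Ugt8a. Without knockout replicate 2 and wild-type replicate 3 together Ugt1a10 turned to 0.36, Ugt2b5 to -0.073 and Ugt3a2 to -0.052. Ugt2b37, Ugt1a6a, Ugt1a6b, Sult1a1, Sult1c2 and Sult1b1 kept their sign under all alternatives. Adding a replicate block left 0 genes called, 0 members called and the members' median at -0.12. Deviations of same-numbered libraries correlated at 0.307, -0.215 and -0.321, and those of knockout replicate 2 and wild-type replicate 3 at 0.550. Whether the numbers pair the samples cannot be settled by these values, since deviations within a group depend on each other. With library sums equalised the members' median was -0.078 and with medians equalised -0.066. The 4 ratios and their leave-outs were added after the data were seen, and each ratio kept its sign. Depth is unknown, which limits genes of low FPKM most.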

Other observations

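The genes whose pattern over the 6 libraries was most like that of Ugt1a10, by Pearson correlation of log2(FPKM + 1) over 12174 genes, were Noct, Rmnd5b and Adra2b, at 0.97, 0.96 and 0.95. Noct, the gene for nocturnin, had 4.77, 3.91 and 9.52 FPKM in knockout kidneys, against 5.61, 4.61 and 8.35 FPKM in wild-type kidneys, high in the same 2 libraries as Ugt1a10. The prolactin receptor gene Prlr, picked after its values were seen, had 2.10, 1.17 and 5.48 FPKM in knockout kidneys, against 1.56, 2.55 and 6.00 FPKM in wild-type kidneys, also highest in knockout replicate 3 and wild-type replicate 3.

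For Ugt2b38 the most alike genes were Etv1, Vcpip1 and Pik3ca, each at 0.99 or above. Etv1, an ETS transcription factor, had 8.30, 5.76 and 7.81 FPKM in knockout kidneys, against 11.2, 8.73 and 6.00 FPKM in wild-type kidneys. With 6 libraries and 12174 genes screened such correlations are descriptions.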
